A study of Homo sapiens with 6 samples.

Results

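The miR-30 family of microRNAs (miRNAs) was followed through an immunoprecipitation for N7-methylguanosine (m7G), a guanine that carries a methyl group. Its members were the rows of both deposited count tables named hsa-miR-30a-5p, hsa-miR-30a-3p, hsa-miR-30b-5p, hsa-miR-30b-3p, hsa-miR-30c-5p, hsa-miR-30c-2-3p, hsa-miR-30d-5p, hsa-miR-30d-3p, hsa-miR-30e-5p and hsa-miR-30e-3p. These were 10 of the 2588 mature miRNAs in the tables, 5 from the 5p arm and 5 from the 3p arm. All 10 passed the filter on low counts, which left 620 miRNAs to test.

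A549, a line of human lung adenocarcinoma cells, gave all libraries, and in it a lentiviral, doxycycline-inducible short hairpin RNA depleted METTL1, an enzyme that places m7G in RNA. The first group was total RNA, the input, and the second was RNA pulled down with an anti-m7G antibody (m7G-RIP), with 3 libraries in each. Each group filled its own deposited count table. Any difference in handling between the groups cannot be told apart from the pulldown. Both groups came from METTL1 knockdown cells kept for 5 days in doxycycline at 200 ng/ml, so the comparison is of bound RNA with input RNA within the knockdown and not of knockdown with control. Libraries from cells with normal METTL1, and pulldowns with a control antibody, were not analysed here. Which METTL1 hairpin the cells carried is not given in the sources used here, and the culture text of the m7G-RIP samples describes medium for Caco-2, a colorectal line, while their titles and cell line labels read A549. The tables hold mature miRNAs alone, so neither the depth of the knockdown nor the identity of the line could be checked against gene expression. Nothing in the labels says that replicates were separate cultures, and p-values then measure the spread between these libraries, which may be technical.

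The total RNA libraries held 9155690 to 10753443 counts over all miRNAs and the m7G-RIP libraries 2649238 to 3106556, with 1074 to 1076 and 731 to 823 miRNAs detected. Levels are given as CPM, counts per 1000000 counts of the library after trimmed-mean (TMM) scaling of its size. A miRNA with 3 counts stood at 0.339 to 0.394 CPM in total RNA and at 0.803 to 0.942 CPM in m7G-RIP, so low members were measured less finely after the pulldown. A log2 ratio below 0 means a lower TMM-scaled level in m7G-RIP than in total RNA. It is not the ratio of plain shares of the library counts, and it says nothing of the absolute amount of RNA recovered.

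A miRNA gene is transcribed as a precursor that folds into a hairpin. Drosha and Dicer cut a short duplex from it, whose strands are named 5p and 3p after their arm of the hairpin. An Argonaute protein usually keeps one of them, the guide, and pairs its seed (bases 2 to 8) with target mRNAs, while the other, the passenger, is mostly degraded. In the miR-30 family the usual guides are the 5p strands, which share one seed. They are abundant in epithelia, where they are known to restrain programmes of mesenchymal change, and the 3p strands differ in seed among members.

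RefSeq mature sequences (GRCh38.p14) were matched for 6 of the 10 members. The strands of miR-30b and miR-30d were not matched. The matched sequences are shown because some of the members compared below differ at few bases. Counts of such close copies rest on those bases. The sequences run 5′ to 3′, and capitals mark the seed. The 5p strands were as follows.
miR-30a-5p: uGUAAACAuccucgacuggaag
miR-30e-5p: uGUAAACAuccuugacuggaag
miR-30c-5p: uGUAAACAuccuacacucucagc
The 3p strands were as follows, and miR-30c-1-3p, from the other miR-30c hairpin, stands beside its counterpart although it is not among the members.
miR-30a-3p: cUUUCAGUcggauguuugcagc
miR-30e-3p: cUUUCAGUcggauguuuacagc
miR-30c-2-3p: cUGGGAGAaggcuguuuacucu
miR-30c-1-3p: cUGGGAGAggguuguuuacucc

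All 3 of the printed 5p strands carried one seed. No other miRNA with a matched sequence had it, but miR-30b-5p and miR-30d-5p had no matched sequence and were not searched. The 3p strands fell into a pair that shared the miR-30a-3p seed and a pair that shared the miR-30c-2-3p seed. Counting from 1 at the 5′ end, miR-30e-5p differed from miR-30a-5p at 1 of 22 bases (C13U) and miR-30e-3p differed from miR-30a-3p at 1 of 22 (G18A). miR-30c-5p matched miR-30a-5p at 17 of 22 bases. miR-30c-1-3p differed from miR-30c-2-3p at 3 bases (A9G, C12U and U22C).

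In GRCh38, miR-30a-5p lies at chr6:71403595-71403616 and miR-30a-3p at chr6:71403554-71403575, both on the minus strand, within an intron of the long noncoding RNA gene LINC00472 in GENCODE v44. The hairpin of MIR30A (chr6:71403551-71403621, minus strand) shows how the strands face each other, with both mature arms in capitals.
MIR30A: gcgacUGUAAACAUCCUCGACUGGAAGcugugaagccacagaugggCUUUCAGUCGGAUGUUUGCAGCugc
MIR30C2 lies on the same strand 26519 bases away and overlaps a LINC00472 exon, with miR-30c-5p at chr6:71377003-71377025 and miR-30c-2-3p at chr6:71376964-71376985. MIR30E and MIR30C1 lie 2837 bases apart on the plus strand in introns of NFYC, which encodes a subunit of the transcription factor NF-Y. There miR-30e-5p occupies chr1:40754371-40754392, miR-30e-3p chr1:40754413-40754434, miR-30c-5p chr1:40757300-40757322 and miR-30c-1-3p chr1:40757339-40757360. Identical miR-30c-5p is thus made from 2 hairpins, and its counts cannot be divided between them.

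In total RNA the 5p strands made up nearly all of the family. After the m7G pulldown every 5p member was lower, by 2.86- to 19.6-fold for the 4 abundant guides, while 3 of the 5 3p members were higher and the other 2 did not pass the test. In counts, 5 of 10 members were called lower against 29.2% of all 620 miRNAs tested, and 3 of 10 were called higher against 23.5% (edgeR's quasi-likelihood test, Benjamini-Hochberg adjusted p under 0.05). The same 5 members had every m7G-RIP library below every total RNA library, as did 36.5% of the miRNAs tested, and the same 3 had every m7G-RIP library above, as did 29.5%. The median log2 ratio was -2.10 over the 5p members and 0.66 over the 3p members. Over the 237 tested miRNAs named 5p it was -0.13, over the 252 named 3p it was -0.45, and over all 620 it was -0.07.

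**Figure D1:**
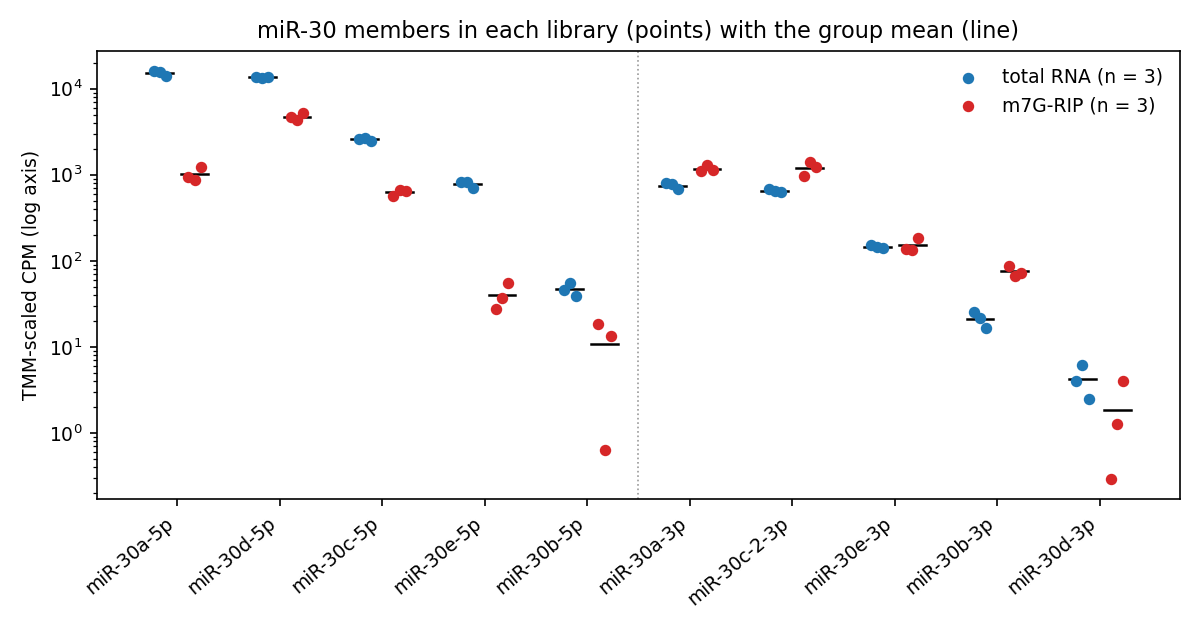
Level of each miR-30 member in each library, in CPM on a log axis, with total RNA and m7G-RIP libraries in different colours, one point per library and a line at each group mean. The 5p members drop in m7G-RIP, from 15279 to 1010 CPM for miR-30a-5p, while miR-30a-3p, miR-30b-3p and miR-30c-2-3p rise.

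miR-30a-5p was the most abundant member in total RNA, at rank 12 among the miRNAs tested. It held 15983, 15790 and 14063 CPM in the 3 total RNA libraries and 948, 864 and 1217 CPM in the m7G-RIP libraries. The groups were far apart, and the guide moved to rank 50. Its means were 15279 ± 1057 and 1010 ± 184 CPM (SD, n = 3 each), a log2 ratio of -3.92 (SE 0.15) with an adjusted p of 1.69e-07 in edgeR's quasi-likelihood test. Of the 620 miRNAs tested, 37 had a lower log2 ratio.

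miR-30e-5p, which differs from miR-30a-5p by the single base C13U, fell about as steeply from a much lower level. Its total RNA libraries held 819, 813 and 703 CPM and its m7G-RIP libraries 27.7, 36.7 and 54.6 CPM, the latter from 94, 117 and 204 counts. The log2 ratio was -4.29 (SE 0.25, adjusted p = 1.48e-06, edgeR's quasi-likelihood test), a 19.6-fold lower level. It was the largest fall in the family, and 30 of the 620 miRNAs tested lay below it.

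miR-30d-5p was nearly as abundant in total RNA as miR-30a-5p and had the smallest log2 change among the guides. It held 13550, 13461 and 13565 CPM in the input and 4630, 4370 and 5176 CPM after the pulldown. The groups were far apart and each was narrow, at 13525 ± 56.1 and 4725 ± 411 CPM (SD, n = 3 each). The log2 ratio was -1.52 (SE 0.10, adjusted p = 2.37e-06, edgeR's quasi-likelihood test), a 2.86-fold fall that took it from rank 13 to rank 21. After the pulldown it was the most abundant member.

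miR-30c-5p lay between these extremes. It held 2612, 2640 and 2487 CPM in the input and 558, 662 and 652 CPM after the pulldown, without overlap. The log2 ratio was -2.05 (SE 0.11, adjusted p = 9.0e-07, edgeR's quasi-likelihood test), or 4.13-fold lower.

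miR-30b-5p was the scarcest guide, and its call was the least secure. Its total RNA libraries held 46.4, 54.8 and 39.4 CPM and its m7G-RIP libraries 18.6, 0.628 and 13.4 CPM, from 63, 2 and 50 counts. The second pulldown library, at 2 counts, stood well below the other two, and all 3 stood below total RNA. The log2 ratio was -2.10 (SE 0.74, adjusted p = 0.0381, edgeR's quasi-likelihood test). Without that library the ratio was -1.72 and the adjusted p 0.00268, and without the first m7G-RIP library they were -2.87 and 0.0277. The call was lost without any one of the total RNA libraries 1, 2 or 3 (log2 ratio -2.09, -1.95 and -2.24, adjusted p = 0.0695, 0.0788 and 0.0729) and without the third m7G-RIP library (-2.44, adjusted p = 0.0532).

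Because some of the guides are close copies, the counts of all 5 were also summed. A read divided among the guides or assigned to another of them would then not change the result. A read counted for several of them would still be counted more than once. The summed 5p level was 32678 ± 1171 CPM before and 6310 ± 488 CPM after the pulldown (SD, n = 3 each). The sum had a log2 ratio of -2.37 (SE 0.11, adjusted p = 3.02e-07, edgeR's quasi-likelihood test), 5.18-fold lower.

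**Figure D2:**
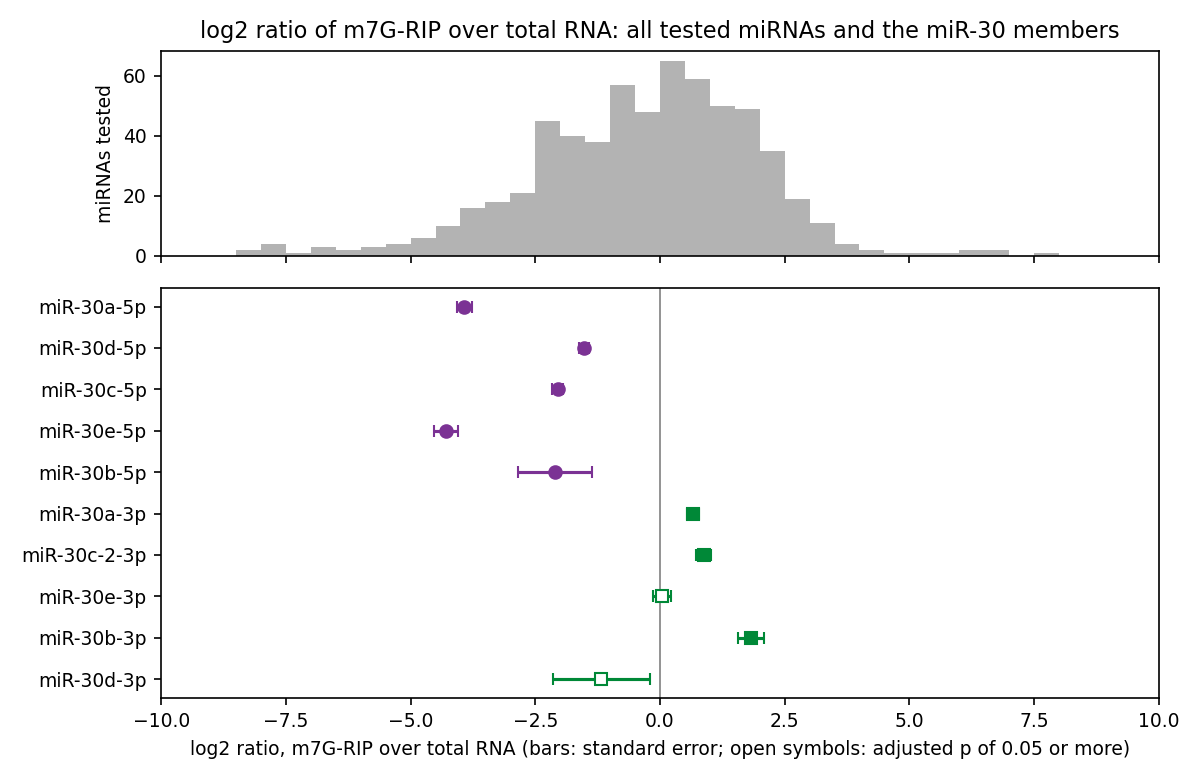
Log2 ratio of m7G-RIP to total RNA (x axis), as a histogram of the 620 miRNAs tested above and for each member below, with its standard error as a bar and open symbols where the adjusted p was 0.05 or more. The 5p members run from -4.29 (miR-30e-5p) to -1.52 (miR-30d-5p), and the 3p members from -1.17 (miR-30d-3p) to 1.82 (miR-30b-3p).

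Among the 3p strands, miR-30a-3p was the most abundant in total RNA. It held 792, 775 and 680 CPM there and 1103, 1306 and 1132 CPM in m7G-RIP, so that every pulldown library was above every input library. The log2 ratio was 0.66 (SE 0.12, adjusted p = 0.00157, edgeR's quasi-likelihood test), a 1.58-fold rise. Without the second m7G-RIP library, its highest, the ratio was 0.41 (adjusted p = 0.0181).

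miR-30c-2-3p, the passenger of the MIR30C2 hairpin, moved in the same direction. It held 680, 649 and 622 CPM in the input and 957, 1406 and 1214 CPM after the pulldown. The rise was 1.83-fold, with a log2 ratio of 0.88 (SE 0.15, adjusted p = 0.00107, edgeR's quasi-likelihood test), and it was 0.57 without the second m7G-RIP library (adjusted p = 0.0117). The other miR-30c hairpin gave the same direction. Its strand miR-30c-1-3p held 20.1, 17.2 and 26.4 CPM in the input and 59.8, 53.4 and 70.4 CPM after the pulldown, a log2 ratio of 1.53 (SE 0.27, adjusted p = 0.00119).

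miR-30b-3p, the passenger of the scarce guide miR-30b-5p, rose most. Its total RNA libraries held 25.6, 21.8 and 16.7 CPM and its m7G-RIP libraries 88.1, 66.2 and 71.7 CPM. In raw counts it reached 299, 211 and 268 in the pulldown libraries against 227, 183 and 127 in the larger input libraries. The log2 ratio was 1.82 (SE 0.26, adjusted p = 0.000334, edgeR's quasi-likelihood test), 3.52-fold higher.

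miR-30e-3p and miR-30d-3p did not pass the test. miR-30e-3p held 153, 146 and 140 CPM in the input and 136, 134 and 183 CPM after the pulldown. These ranges overlapped, and the log2 ratio was 0.05 (SE 0.18, adjusted p = 0.838, edgeR's quasi-likelihood test). miR-30d-3p was close to the counting limit, with 36, 52 and 19 counts in total RNA and 1, 4 and 15 in m7G-RIP. Its levels of 4.06, 6.18 and 2.50 CPM against 0.295, 1.26 and 4.02 CPM overlapped, and with a log2 ratio of -1.17 (SE 0.97, adjusted p = 0.335) a difference was not detectable at this depth. Without the third m7G-RIP library, its highest, the ratio was -2.66 (adjusted p = 0.0674).

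The scaling between libraries shifts every log2 ratio together. With library size alone the median over all miRNAs rose by 0.55, and the calls over all miRNAs moved from 146 higher and 181 lower to 216 higher and 141 lower. The 5p members stayed below 0 on that scale, from -0.96 for miR-30d-5p to -3.74 for miR-30e-5p, although miR-30b-5p lost its call (adjusted p = 0.123), and miR-30e-3p gained one at 0.60 (adjusted p = 0.0162). miR-30a-3p then stood at 1.21 and miR-30c-2-3p at 1.42.

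The ratio of the 5p to the 3p strand within a library does not depend on that scaling. An arm pair was a 5p and a 3p strand of one miRNA name, both past the filter, and there were 140. miR-30c-5p, whose counts come from both miR-30c hairpins, was paired with miR-30c-2-3p. For each arm pair the log2 ratio of 5p to 3p counts (0.5 added to each) was compared between groups with limma. The 5p strand lost ground to its 3p partner in 4 of the 5 miR-30 arm pairs, against 17.1% of all arm pairs. Over all pairs the median change was 0.39 toward the 5p strand.

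miR-30a-5p outnumbered miR-30a-3p by 20.2, 20.4 and 20.7 to 1 in the total RNA libraries. In m7G-RIP the ratio was 0.860, 0.661 and 1.08, so the strands were close to parity. The log2 change was -4.59 (SE 0.24, limma adjusted p = 0.000210), a 24.0-fold fall of the ratio.

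miR-30e showed a fall of like size and ended with the passenger in excess. Its 5p to 3p ratio was 5.36, 5.55 and 5.01 in total RNA and 0.204, 0.275 and 0.298 in m7G-RIP. The log2 change was -4.37 (SE 0.22, limma adjusted p = 0.000210), a 20.7-fold fall.

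miR-30c-5p set against miR-30c-2-3p gave 3.842, 4.070 and 3.998 in total RNA and 0.583, 0.471 and 0.537 in m7G-RIP, a log2 change of -2.91 (SE 0.18, limma adjusted p = 0.000331). miR-30c-2-3p thus exceeded the guide in every pulldown library, while the guide exceeded it in every input library. Set against the scarcer miR-30c-1-3p, the guide remained in excess in all 6 libraries, with ratios of 130, 153 and 93.9 in total RNA and 9.32, 12.4 and 9.24 in m7G-RIP. That change was -3.59 (SE 0.27, limma adjusted p = 0.000620).

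miR-30b-5p over miR-30b-3p was 1.81, 2.51 and 2.36 in total RNA and 0.212, 0.0118 and 0.188 in m7G-RIP. The log2 change of -4.82 had a wide error (SE 1.22, limma adjusted p = 0.0302). It was -3.46 (adjusted p = 0.00219) without the second m7G-RIP library, -5.55 (adjusted p = 0.0408) without the first and -5.46 (adjusted p = 0.0462) without the third. The call was lost without any one of the total RNA libraries 1, 2 or 3 (adjusted p = 0.0700, 0.0837 and 0.0796).

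miR-30d was the exception. Its 5p strand exceeded its 3p strand 3290-, 2157- and 5291-fold in total RNA and 10479-, 3093- and 1247-fold in m7G-RIP. The groups overlapped, with a log2 change of 0.04 (SE 0.87, limma adjusted p = 0.997). These ratios rest on the 1 to 52 counts of miR-30d-3p, and the sign of the change turned when the first m7G-RIP library was left out (-0.77) or the second total RNA library was left out (-0.28).

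**Figure D3:**
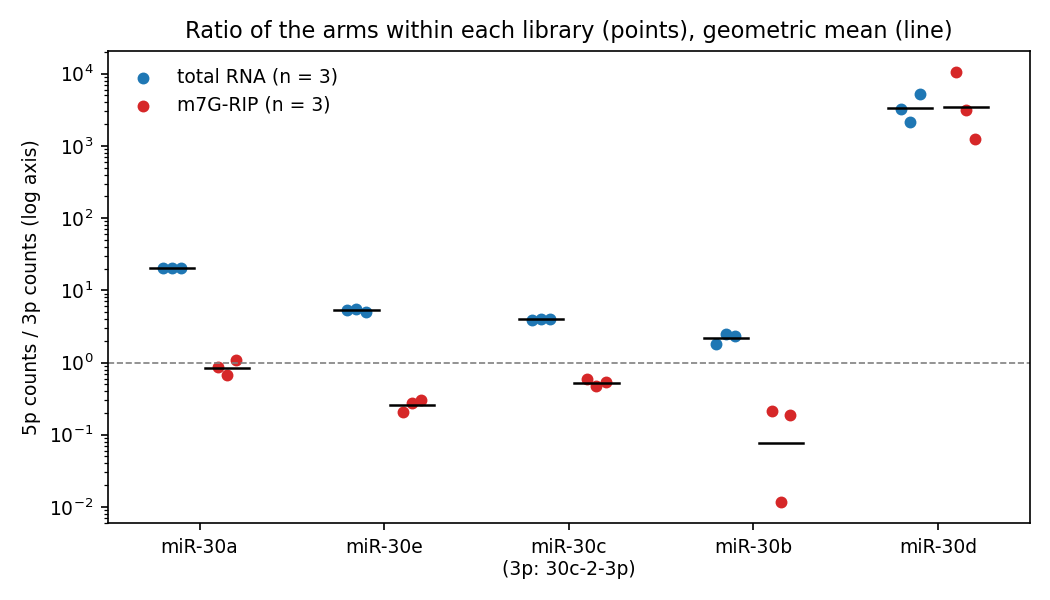
Ratio of 5p to 3p counts within each library, on a log axis, for the miR-30 arm pairs. Total RNA and m7G-RIP libraries have different colours. Each library is a point, with a line at each geometric mean and a dashed line at equal counts. The ratio falls without overlap for miR-30a, miR-30b, miR-30c and miR-30e, and the miR-30d libraries overlap.

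The make-up of the family changed accordingly. The 5p strands held 95.2, 95.3 and 95.5% of the family's counts in total RNA and 73.0, 67.1 and 73.2% in m7G-RIP, a difference of -24.3 percentage points (exact permutation p = 0.1, below which a design of 3 against 3 cannot go). The whole family held 2.86, 2.82 and 2.68% of all miRNA counts in total RNA and 1.09, 1.02 and 1.17% in m7G-RIP (difference -1.70 points, exact permutation p = 0.1). Neither share overlapped between groups, and this design could not reach a p under 0.05 for either.

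The leading guide also changed. Of the 5p counts, miR-30a-5p held 47.4% ± 1.58 in total RNA and 15.7% ± 1.31 in m7G-RIP (SD, n = 3), while miR-30d-5p held 42.0% ± 1.67 and 73.8% ± 1.06. Of all family counts, miR-30a-3p went from 2.22 to 13.1% and miR-30c-2-3p from 1.92 to 13.2%, while miR-30a-5p went from 45.2 to 11.2%. Both 3p strands were above miR-30a-5p in the first and second m7G-RIP libraries, and in the third miR-30a-5p held 12.52% against 11.65% for miR-30a-3p and 12.50% for miR-30c-2-3p.

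**Figure D4:**
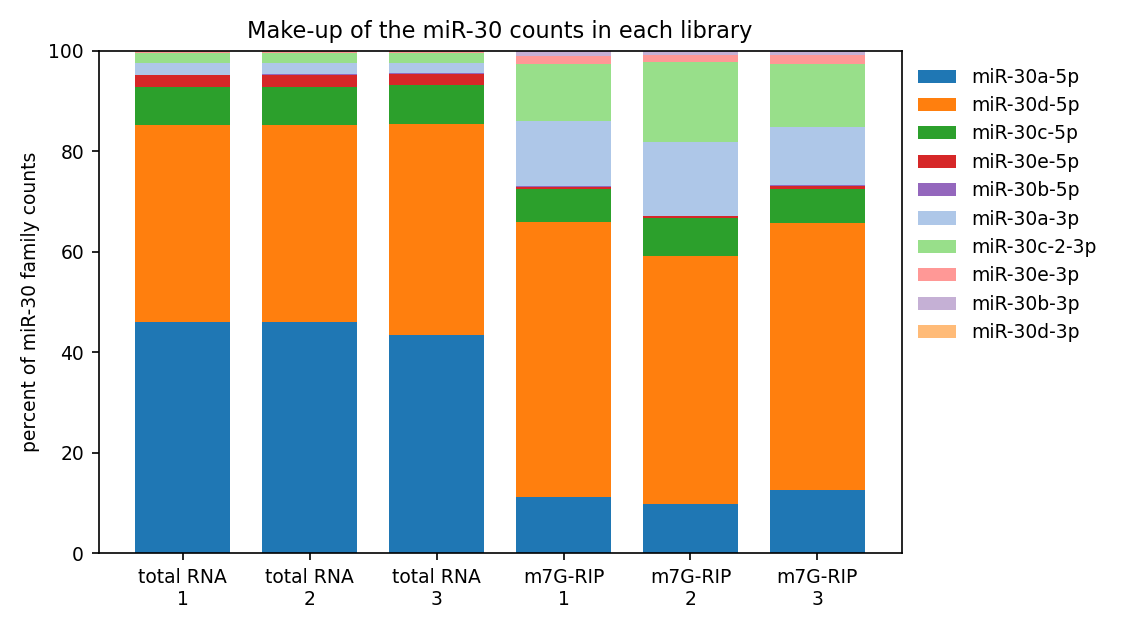
Share of the family's counts (percent, y axis from 0) held by each member in each of the 6 libraries, as stacked bars. miR-30a-5p shrinks from a mean of 45.2 to 11.2%, miR-30d-5p goes from 40.1 to 52.4%, and the 3p strands miR-30a-3p and miR-30c-2-3p reach 13.1 and 13.2%.

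Whether strands of one arm moved alike was asked of 20 pairs of members, 10 per arm, as the change in the ratio of one to the other within libraries. In 14 pairs the libraries of the groups did not overlap, 6 of 10 among the 5p pairs and 8 of 10 among the 3p pairs. Over all pairs of tested miRNAs the share without overlap was 63.5% for those named 5p and 57.6% for those named 3p, so such a split was common throughout the tables. Each of these had an exact permutation p of 0.1, the smallest possible, and 0.143 after Benjamini-Hochberg adjustment over the 20 pairs, so none passed the threshold.

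The widest split among the 4 abundant guides was between miR-30d-5p and miR-30e-5p, whose ratio was 16.5, 16.6 and 19.3 in total RNA and 166, 118 and 94.6 in m7G-RIP, a 7.06-fold rise with a log2 change of 2.82 (SE 0.25). The ratio of miR-30a-5p to miR-30d-5p, the most abundant pair, was 1.18, 1.17 and 1.04 in total RNA and 0.205, 0.198 and 0.235 in m7G-RIP, a 5.32-fold fall with a log2 change of -2.41 (SE 0.10). miR-30c-5p and miR-30d-5p stayed closer, with a ratio of 0.193, 0.196 and 0.183 in total RNA and 0.121, 0.151 and 0.126 in m7G-RIP (log2 change -0.53, SE 0.10). All 4 pairs with miR-30b-5p overlapped.

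Among the printed member strands, miR-30a and miR-30e differ at a single base in each arm. miR-30d-5p had no matched sequence, so its distance from miR-30a-5p was not counted. The ratio of miR-30a-5p to miR-30e-5p was 19.5, 19.4 and 20.0 in total RNA and 34.1, 23.4 and 22.2 in m7G-RIP, a 1.33-fold rise (log2 change 0.41, SE 0.19). The ratio of miR-30a-3p to miR-30e-3p was 5.19, 5.30 and 4.85 in total RNA and 8.10, 9.76 and 6.17 in m7G-RIP, a 1.54-fold rise (log2 change 0.62, SE 0.20). In both arms the m7G-RIP libraries lay above total RNA. miR-30a-3p and miR-30c-2-3p, which match at 12 of 22 bases, had overlapping ratios (log2 change -0.20, SE 0.11, exact permutation p = 0.2).

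The modified base is a guanine, so the guanines of the printed strands were counted. miR-30c-5p held 2 in 23 bases (8.70%), and miR-30a-5p and miR-30e-5p held 5 in 22 (22.7%). miR-30e-3p also held 5, miR-30a-3p held 6 (27.3%), miR-30c-2-3p held 7 (31.8%) and miR-30c-1-3p held 8 (36.4%). The 5p strands printed, and miR-30e-3p, were thus below the median of the tested miRNAs (27.3%). The order of guanine content was not the order of the log2 ratios among the printed 5p strands. miR-30c-5p held the fewest guanines and had the smallest fall of the 3.

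RefSeq mature sequences were matched for 553 tested miRNAs (89.2%), and among these a higher guanine content went with a higher log2 ratio (Pearson r 0.41, Spearman rho 0.43). This is a description across miRNAs of the same 6 libraries, which are not independent replicates, and guanine content moves with the rest of base composition. The motif GGG, searched on the miRNA strand alone, was in 33.0% of the sequenced miRNAs of the tables, and GGGAG, which contains it, was in 5.62%. Of the members with a sequence only miR-30c-2-3p held either, and it held both, within its seed. The strands of miR-30b and miR-30d had no matched sequence and were not searched. They include miR-30b-3p, the member that rose most. Tested miRNAs with GGG had a median log2 ratio of 0.83 and those without it -0.55. For GGGAG the medians were 2.20 over 29 miRNAs and -0.14 over the rest. Which guanine, if any, was methylated cannot be read from counts.

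**Figure D5:**
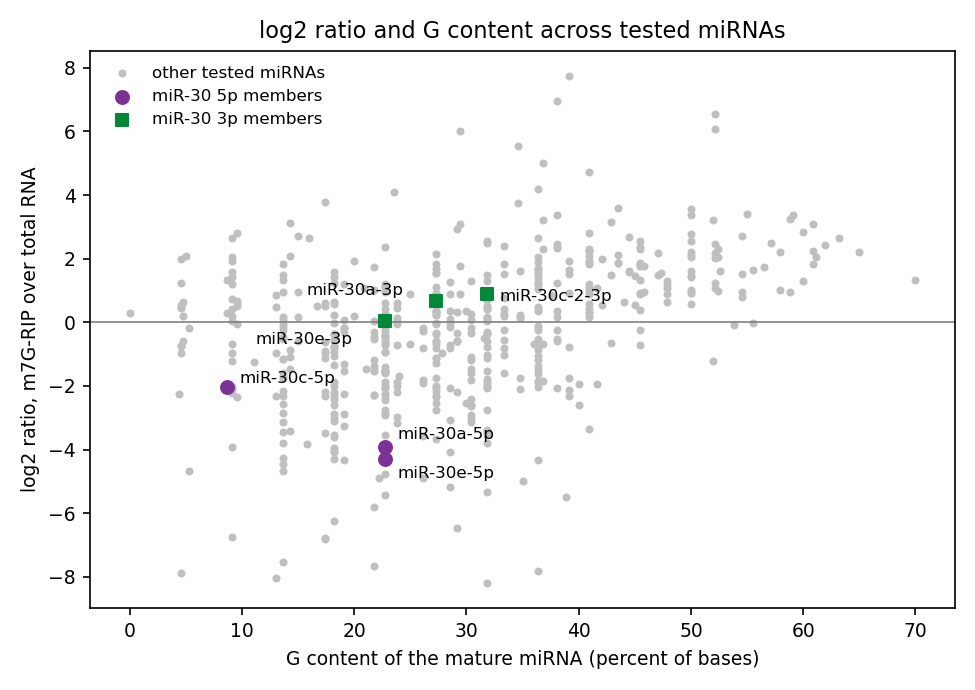
Log2 ratio of m7G-RIP to total RNA (y axis) against guanine content of the mature sequence in percent (x axis) for 553 tested miRNAs, with the miR-30 strands that have a sequence marked. Of the marked strands miR-30c-5p lies farthest left, at 8.70% and -2.05. The 3p strands lie at 22.7 to 31.8%. miR-30a-5p and miR-30e-5p, at -3.92 and -4.29, share the 22.7% of miR-30e-3p, at 0.05.

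The miRNAs most like the most abundant members were sought among the 297 other tested miRNAs whose mean count reached 100, by Pearson's r of log2 CPM over the 6 libraries. For miR-30d-5p these were miR-381-3p, miR-33b-3p and miR-148a-5p (r of 0.999 to 1.00), whose own log2 ratios were -5.43, -5.34 and -3.88. Their profiles had its shape with deeper falls. For miR-30a-3p they were miR-134-5p, miR-196b-5p and miR-125b-1-3p (r of 0.984 to 0.987), with log2 ratios of 1.33, 1.03 and 0.90. With 2 groups of 3 libraries, such an r mostly describes the step between the groups.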

How the data were processed

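Small RNA was sequenced from 3 total RNA and 3 m7G-RIP libraries of METTL1 knockdown A549 cells. The deposited values were raw counts, 1 row for each mature miRNA. By the study's methods, Trimmomatic removed adaptors from the demultiplexed reads of 50 bases, STAR placed them on GRCh38 over their full length with 1 mismatch and up to 10 alignments, and featureCounts counted them on miRBase mature miRNAs. The submitters' processing notes name Bowtie2 instead. How reads with several alignments were counted is not stated, so counts of close copies such as miR-30a-5p and miR-30e-5p may share reads. The antibody was applied to decapped RNA. Groups and replicate numbers came from the sample titles.

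The 10 members, the lists and the tests were chosen with earlier results of these data known. The named miRNAs were the members, miR-30c-1-3p as the other partner of miR-30c-5p, and the 3 miRNAs most like the most abundant 5p and 3p members. All 2588 miRNAs entered edgeR 4.0.16 in R 4.3.3 (filterByExpr by group, TMM, robust quasi-likelihood F test, 620 tested, Benjamini-Hochberg adjustment, threshold 0.05). Arm ratios were fitted with limma 3.58.1 over 140 pairs, with 0.5 added to each count. Single values were compared by exact two-sided permutation over libraries. The fits were tested on simulated data with as many miRNAs raised as lowered, so the scaling was not tested under uneven changes. Alternatives covered scaling, filters, tools (DESeq2 1.42.0, the edgeR likelihood ratio test, limma-voom), pseudocounts, a block on replicate number, and each library left out in turn.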

Additional observations from a re-analysis of the deposited data

How the results depend on the processing

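Over the alternatives, 4 to 5 members were called lower and 3 to 4 higher, except that 1 was higher when a 2-fold change was also required. Over all miRNAs, 141 of 620 were lower and 216 higher with library size alone. Without a filter 219 of 1469 were lower and 124 higher. Under a minimum of 10 counts 133 of 359 were lower and 124 higher, and miR-30b-5p and miR-30d-3p were not tested. With single libraries left out, 149 to 245 were lower and 116 to 134 higher, of 594 to 778 tested. For the 2-fold requirement no share over all miRNAs is given. The summed 5p level ranged from -2.66 to -1.77 on the log2 scale (highest adjusted p 3.31e-06). The log2 ratio of miR-30e-3p turned negative without a filter (-0.23), under a minimum of 10 counts in all libraries (-0.015) and on leaving out single libraries (-0.33 to 0.052), and rose to 0.60 with library size alone and to 0.50 (adjusted p = 0.0296) without the 10 most abundant miRNAs. The arm change of miR-30d turned with 2 added to each count (-0.41), as the difference of edgeR log2 ratios (-0.34) and on leaving out single libraries (-0.77 to 0.77). miR-30b-5p also lost its call without the 10 most abundant miRNAs (adjusted p = 0.0987) and without a filter (0.134). The cause was not tested. The number of miR-30 arm pairs whose 5p strand fell was 3 to 4. Under the minimum of 10 counts it was 3, against 17 of all 69 pairs, and neither miR-30b nor miR-30d was tested. In the other settings where it was 3, miR-30b lost its call. With at least 1 count in any library for both arms, 19 of all 389 pairs were called. With single libraries left out, 15 to 25 were called of 125 to 176 pairs.

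Leaving out single libraries moved the 5p share difference between -25.3 and -22.2 points and the family share difference between -1.75 and -1.66. Without miR-30d-5p these were -52.9 and -1.15, and with miR-30c-1-3p added they were -24.7 and -1.69. The non-overlapping pairs numbered 14 to 16. Leaving out a library can only keep or raise that count, so those settings do not check it. The share over all pairs of tested miRNAs is not given for them.

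The deviations of same-numbered libraries had correlations of -0.0450, -0.0975 and 0.0696 over all tested miRNAs and of 0.0737, 0.0852 and 0.1002 over those with a mean of 100 counts or more. Since not every pair exceeded 0.1, the numbers were not taken as a pairing. With the replicate block 5 members were lower, 3 higher and 3 arm pairs called (miR-30b lost, limma adjusted p = 0.0599). Over all 620 miRNAs tested 175 were then lower and 122 higher, and the 5p strand fell in 16 of all 140 arm pairs. The summed 5p call held, and the share differences were -24.3 and -1.70 points (exact sign-flip p = 0.25, the smallest possible).

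The lowest m7G-RIP counts were 1 for miR-30d-3p and 2 for miR-30b-5p, where counting error is large. For miR-30b-5p the other m7G-RIP libraries, of like size, held 63 and 50. Antibody background and m7G cannot be told apart, since control antibody libraries were not analysed here.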
